A study of Mus musculus with 8 samples.

Results

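Acute phase and chitinase-like genes were compared between hearts of female and male C57BL/6 mice, an inbred laboratory strain. The 7 genes were Chil1, Chil3, Lcn2, Saa3, Orm1, Serpina3n and Apcs, taken by their gene symbol on the array, out of 7812 rows that could be compared (5851 of them with a symbol). They were picked because of their female to male ratios in these data, so their ratios are given as a description, with no test. The groups were female pools and male pools of whole hearts, at 8 and at 2 months of age, each made of total RNA from 6 hearts; no treatment or mutant allele is named in the labels. Each array held the female and the male pool of 1 age in 2 dyes, Cy3 and Cy5, and there were 4 arrays per age, with the female pool in Cy3 on replicates 1 and 3 and in Cy5 on replicates 2 and 4. These arrays are repeat measurements of the same pools, so an SD over 4 arrays describes the technique and not the animals, and 1 pool per sex and age gives no test at 1 age. All values are log2 ratios of the female over the male pool, where 1 means 2-fold higher in females, and each age is given as the average of its 2 dye orientations.

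The acute phase response is the change in secreted proteins that follows infection or tissue injury. Cytokines such as interleukins and tumour necrosis factor drive it through the transcription factors Stat3, C/EBP and NF-kappaB, mostly in hepatocytes, although several of its genes are also transcribed in other tissues and in immune cells. Saa3 (a serum amyloid A made largely outside the liver in mice), Orm1 (orosomucoid, a glycoprotein of the plasma), Serpina3n (a secreted inhibitor of serine proteases) and Apcs (serum amyloid P, a pentraxin that is a main acute phase protein of mice) belong to this response. Lcn2 encodes a lipocalin that withholds iron from bacteria by binding their siderophores. Chil1 and Chil3 encode secreted relatives of chitinases that bind sugars without cleaving chitin. Chil3 is known as a product of alternatively activated macrophages and of developing neutrophils.

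The promoter sequences of 4 genes are printed here. These genes were picked for being higher in the female pool on every 8-month array, with no overlap with the 2-month arrays. Whether they are regulated together was not tested. The sequences are the 250 bases upstream of the annotated start, from RefSeq on the mouse build GRCm38.p6, written 5′ to 3′ on the gene's strand. Chil1 lies at chr1:134181906-134182155, plus strand, Chil3 at chr3:106167565-106167814, minus strand, Lcn2 at chr2:32387740-32387989, minus strand and Saa3 at chr7:46715677-46715926, minus strand. The Saa3 stretch lies inside the longest annotated span of its own gene, and the other 3 stretches do not lie inside that of theirs. Capitals mark matches to 5 motifs, which were searched on both strands in the 6 of the 7 genes with a RefSeq promoter sequence in the table used, all but Orm1.
Chil1: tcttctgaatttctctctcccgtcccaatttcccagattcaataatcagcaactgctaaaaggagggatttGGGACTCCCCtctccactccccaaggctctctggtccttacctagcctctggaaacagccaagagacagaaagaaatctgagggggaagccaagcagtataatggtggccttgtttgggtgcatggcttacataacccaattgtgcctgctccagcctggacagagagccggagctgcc
Chil3: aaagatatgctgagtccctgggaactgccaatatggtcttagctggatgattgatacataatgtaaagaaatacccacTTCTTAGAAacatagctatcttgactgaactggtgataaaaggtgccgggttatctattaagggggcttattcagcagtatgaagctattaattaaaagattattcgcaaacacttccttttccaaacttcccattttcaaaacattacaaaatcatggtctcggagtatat
Lcn2: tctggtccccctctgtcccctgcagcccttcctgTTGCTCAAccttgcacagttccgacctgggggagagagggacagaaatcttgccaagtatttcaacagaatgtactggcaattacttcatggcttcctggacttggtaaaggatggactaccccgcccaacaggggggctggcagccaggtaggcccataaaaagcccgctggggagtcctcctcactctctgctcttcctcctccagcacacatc
Saa3: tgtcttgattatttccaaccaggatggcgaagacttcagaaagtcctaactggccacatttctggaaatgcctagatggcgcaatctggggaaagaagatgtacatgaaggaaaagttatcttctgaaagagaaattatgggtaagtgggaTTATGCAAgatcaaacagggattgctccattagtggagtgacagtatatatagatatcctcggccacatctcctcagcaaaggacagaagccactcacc
The match in Chil1 was to the kappaB motif, beginning 179 bases upstream, which 3.9% of 32851 promoter stretches of the same length also held. The match in Chil3, 172 bases upstream, was to the STAT motif TTCNNNGAA, found in 7.02% of the stretches. Lcn2 and Saa3 each matched the C/EBP motif TTGCNNAA, 216 bases upstream in Lcn2 and, on the opposite strand, 99 bases upstream in Saa3, and 9.56% of all stretches held it. The letters TGANTCA (AP-1, 6.75% of stretches) and TATAAA (the TATA box, 12.4%) were in none of the 4. Of the 2 promoters not printed, that of Apcs, which was lower in females, held the STAT motif 244 bases upstream, and that of Serpina3n held none of the 5. No match overlapped another. A match is a description of letters only.

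At 8 months 5 of the 7 genes were higher in the female pool by 1.5-fold or more, with the 4 arrays agreeing in sign, a rule that 1.68% of all rows met, and 1 gene was lower, against 1.31% of rows. The 5 were Chil1, Lcn2, Saa3, Chil3 and Orm1, and the gene that was lower was Apcs. At 2 months 1 gene was higher by the same rule, Orm1 (2.41% of rows), and 1 was lower, Apcs (1.77% of rows). The median of the 7 genes was 1.44 at 8 months and -0.17 at 2 months, beside medians of -0.03 and -0.02 over all rows tested. Since the genes were chosen on these ratios, nothing is read from these counts.

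**Figure D1:**
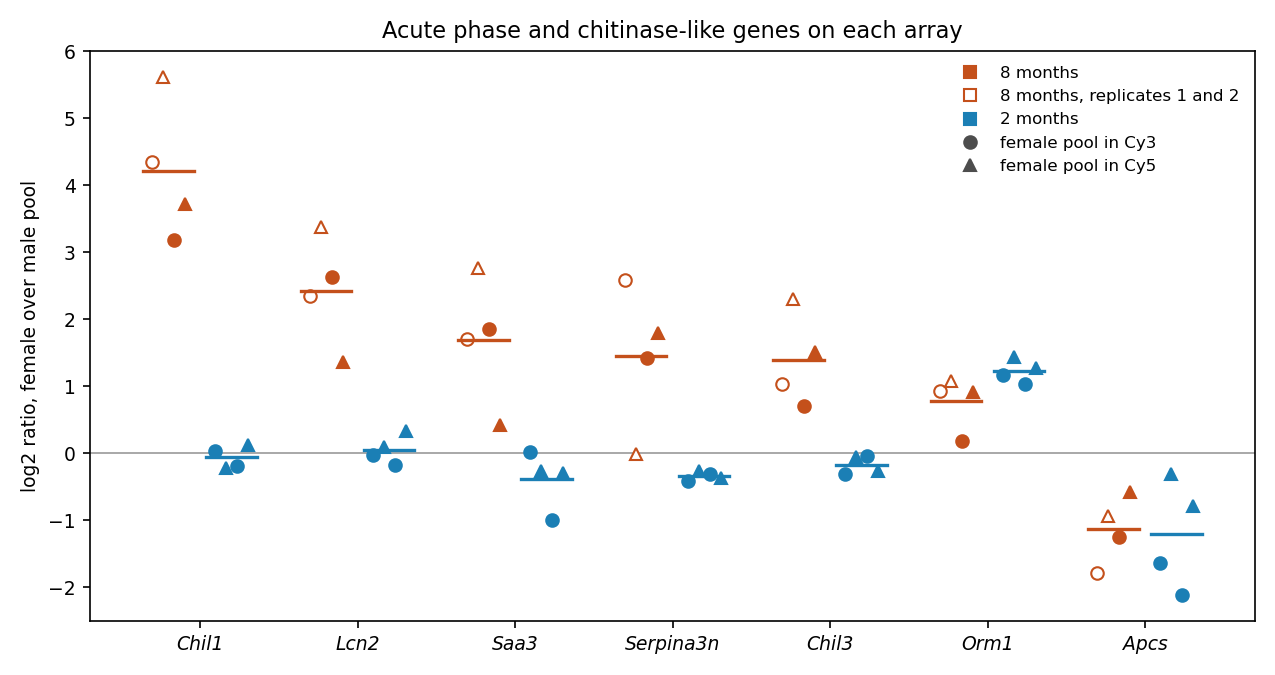
Log2 ratio of the female over the male pool (y axis) for each of the 7 genes (x axis) on each array, with 8 months left of 2 months, circles for the female pool in Cy3, triangles for Cy5, open symbols for replicates 1 and 2 at 8 months and bars for the dye-balanced mean. The 8-month points of Chil1 lie between 3.18 and 5.62 and its 2-month points between -0.22 and 0.12, while those of Orm1 and Apcs overlap between the ages.

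Chil1 had the widest separation between the ages. Its ratio was 4.34, 5.62, 3.18 and 3.72 on replicates 1 to 4 at 8 months, against 0.04, -0.22, -0.19 and 0.12 at 2 months. Every 8-month array was above every 2-month array, and the 2-month arrays lay on both sides of 0. The mean was 4.21 ± 1.05 at 8 months and -0.06 ± 0.17 at 2 months (SD, n = 4 arrays each), so the female pool held 18.6-fold more Chil1 RNA at 8 months. Among all rows this was the second highest ratio at 8 months by size, after a probe that carries several gene symbols. At 2 months Chil1 stood at place 4622 of 7812.

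Lcn2 had ratios of 2.34, 3.37, 2.63 and 1.36 on replicates 1 to 4 at 8 months, against -0.03, 0.09, -0.17 and 0.33 at 2 months. The lowest 8-month array was 1.03 above the highest 2-month array. The mean was 2.43 ± 0.83 at 8 months, which is 5.37-fold, and 0.055 ± 0.21 at 2 months (SD, n = 4 arrays each). In order of size Lcn2 was at place 10 of all rows at 8 months.

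Saa3 had ratios of 1.71, 2.77, 1.86 and 0.42 on replicates 1 to 4 at 8 months, against 0.01, -0.27, -1.0 and -0.29 at 2 months. The ages did not overlap, but replicate 4 at 8 months was only 0.41 above the highest 2-month array. The mean was 1.69 ± 0.97 at 8 months (3.23-fold) and -0.39 ± 0.43 at 2 months (SD, n = 4 arrays each).

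Serpina3n was at 2.58, -0.02, 1.43 and 1.79 on replicates 1 to 4 at 8 months, against -0.42, -0.26, -0.31 and -0.37 at 2 months. Replicate 2 alone was near 0 at 8 months, which kept Serpina3n from meeting the rule of 1 sign, although the ages still did not overlap. Its 2-month arrays were closer together than those of the other 6 genes, with an SD of 0.07. The mean was 1.44 ± 1.09 at 8 months and -0.34 ± 0.07 at 2 months (SD, n = 4 arrays each).

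Chil3 had ratios of 1.03, 2.30, 0.70 and 1.52 on replicates 1 to 4 at 8 months, against -0.32, -0.06, -0.04 and -0.27 at 2 months. All 8-month arrays were above 0 and all 2-month arrays were below it, as in 1.05% of all rows, while 0.666% of rows had the opposite pattern. The mean was 1.39 ± 0.69 at 8 months (2.62-fold) and -0.17 ± 0.14 at 2 months (SD, n = 4 arrays each). A cDNA probe cannot be assumed to separate Chil3 from its near-identical relative Chil4, and the same holds for Orm1 and Orm2, for Saa3 and the other serum amyloid A genes, and for the cluster of genes around Serpina3n.

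For these 5 genes the ratio was at least 1.5-fold higher at 8 than at 2 months with no overlap of the arrays, which was the case for 1.57% of all rows. The difference of the 2 ages, on the log2 scale, was 4.27 for Chil1, 2.37 for Lcn2, 2.08 for Saa3, 1.79 for Serpina3n and 1.56 for Chil3. In the order of the 8-month means, Chil1 was above Lcn2 on each of the 4 arrays, although their ranges over these arrays overlapped. Saa3, Serpina3n and Chil3 did not differ from each other beyond their spread. A ratio does not show whether the female pool held more RNA at 8 months or the male pool less, because no array compared 2 ages. In whole hearts, more cells of a type and more RNA per cell cannot be told apart either.

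**Figure D2:**
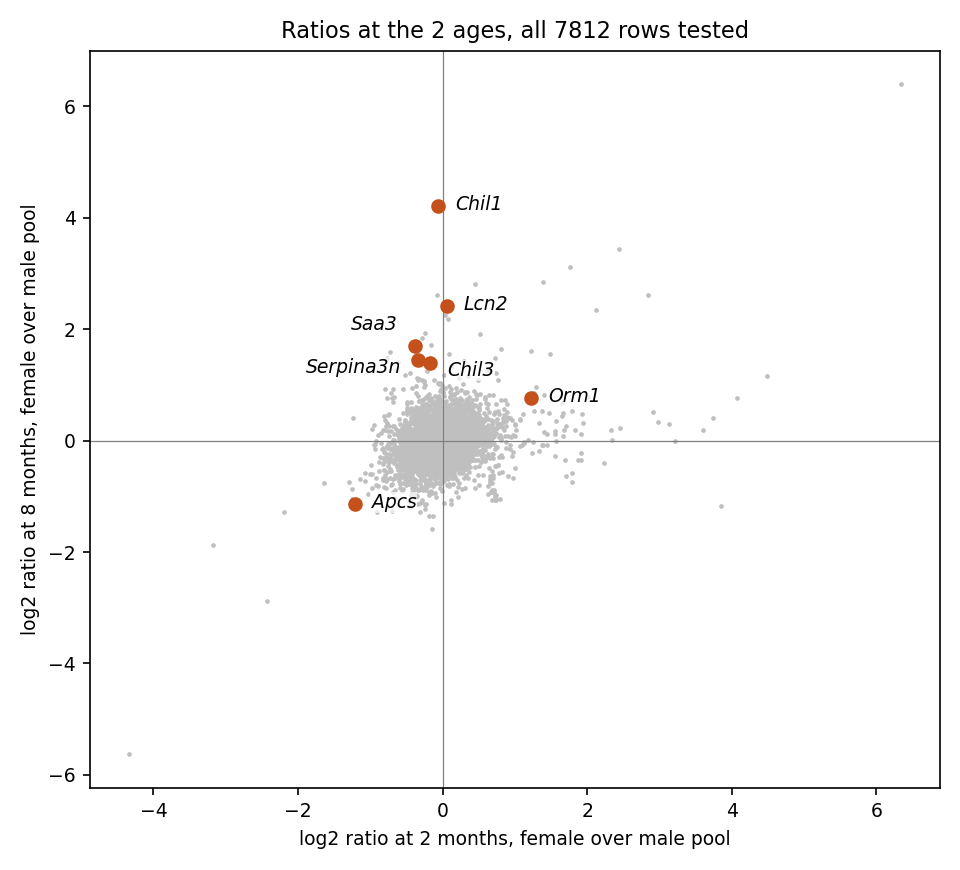
Log2 ratio of the female over the male pool at 8 months (y axis) against the ratio at 2 months (x axis), with 7812 rows in grey and the 7 genes in orange. Chil1, Lcn2, Saa3, Serpina3n and Chil3 lie high on the 8-month axis and between -0.39 and 0.055 on the 2-month axis, whereas Orm1 is above 0 and Apcs below 0 on both.

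Orm1 was higher in the female pool at both ages. Its ratio was 0.93, 1.07, 0.19 and 0.91 on replicates 1 to 4 at 8 months, against 1.17, 1.43, 1.03 and 1.28 at 2 months. The arrays of the ages overlapped, and replicate 3 at 8 months was the one low value. The mean was 0.77 ± 0.40 at 8 months (1.71-fold) and 1.23 ± 0.17 at 2 months (2.34-fold; SD, n = 4 arrays each). Orm2, a close relative of Orm1 with a probe of its own, was at 0.66 ± 0.44 at 8 months and 0.89 ± 0.21 at 2 months (SD, n = 4 arrays each).

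Apcs was lower in the female pool at both ages. Its ratio was -1.79, -0.93, -1.25 and -0.57 on replicates 1 to 4 at 8 months, against -1.64, -0.31, -2.11 and -0.80 at 2 months. All 8 arrays were below 0, and the ages overlapped. At both ages the arrays with the female pool in Cy3 were the lower ones, with means of -1.52 in Cy3 and -0.75 in Cy5 at 8 months, against -1.88 in Cy3 and -0.55 in Cy5 at 2 months. The dye-balanced mean was -1.14 ± 0.51 at 8 months and -1.21 ± 0.81 at 2 months (SD, n = 4 arrays each), that is 2.20-fold and 2.32-fold higher in the male pool. Of the 7 genes, Apcs had the largest gap between the dye orientations at 2 months, 1.33, against 0.01 to 0.31 for the other 6. At 8 months this gap, Cy5 less Cy3, was 0.76 for Apcs, 0.91 for Chil1, 1.04 for Chil3 and -1.12 for Serpina3n. For Orm1, Lcn2 and Saa3 it was 0.43, -0.12 and -0.19 at 8 months.

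Replicates 1 and 2 at 8 months stood apart from the other 6 arrays. The running median of all rows along the feature number, the place of a probe in the array's own numbering, varied there by 0.51 and 0.82 (SD, log2), against 0.04 to 0.07 on the other arrays. At the position of Serpina3n this running median was -1.01 on replicate 2, so that its ratio of -0.02 there lay 1.00 above the rows around it. At the position of Lcn2 the running median was 1.24 on replicate 2 and -0.68 on replicate 1, and less these values the ratio of Lcn2 was 2.13 and 3.02. At the position of Apcs it was -1.10 on replicate 2, and less this the ratio of Apcs was 0.17, the 1 array on which Apcs was then not lower at 8 months. After the running median was taken off on every array, the 8-month means were 4.11 for Chil1, 2.27 for Lcn2, 1.53 for Saa3, 1.56 for Serpina3n, 1.41 for Chil3, 0.62 for Orm1 and -0.99 for Apcs. Serpina3n then met the size rule and Apcs did not.

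**Figure D3:**
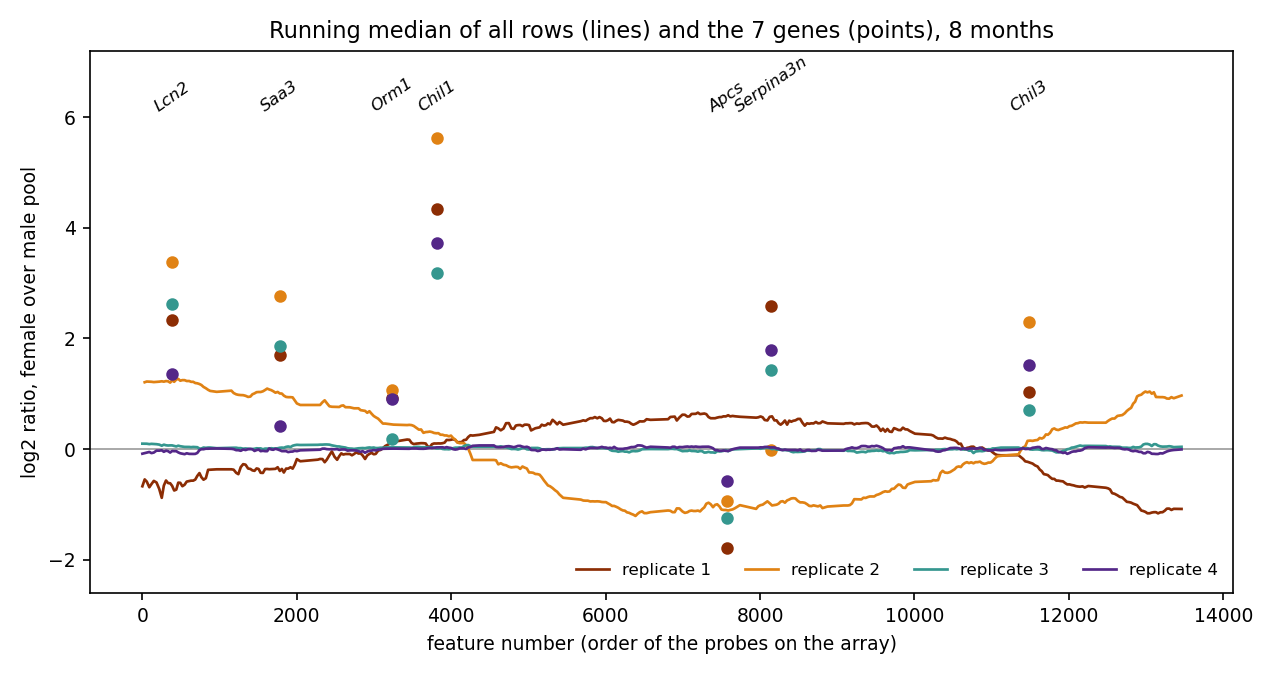
Running median over 201 rows of the log2 ratio of the female over the male pool (lines, y axis) along the feature number (x axis) on the 4 arrays at 8 months, with the 7 genes as points in the colour of the array. The line of replicate 2 is at 1.24 by Lcn2 and -1.01 by Serpina3n, while the lines of replicates 3 and 4 stay near 0.

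On replicates 3 and 4 alone, the 8-month means were 3.45 for Chil1, 1.99 for Lcn2, 1.61 for Serpina3n, 1.14 for Saa3, 1.11 for Chil3, 0.55 for Orm1 and -0.91 for Apcs. With 1 sign asked of these 2 arrays, 5 of the 7 genes were higher by the size rule (2.08% of rows) and 1 was lower (1.26% of rows). The 5 were Chil1, Lcn2, Serpina3n, Saa3 and Chil3, with Orm1 just under 1.5-fold at 1.46-fold. The same 5 genes were also at least 1.5-fold higher than at 2 months with no overlap (3.32% of rows), and Orm1 was lower than at 2 months (2.71% of rows). Chil1 was then in place 3 of 7798 rows and Serpina3n in place 22.

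Of 42 further genes of the acute phase response, raised in it in mice or other species, 12 were measured. At 8 months all 12 were above 0, with a median of 0.20 and a range of 0.06 to 1.13, while 45.0% of all rows were above 0. Some of these means join arrays of opposite sign, such as 1.46 on replicate 1 and -0.79 on replicate 2 for Hpx. By the size rule 2 of the 12 were higher, Orm2, whose probe cannot be assumed to exclude Orm1, and Mbl2, a mannose-binding lectin of the plasma. Mbl2 was at 0.38, 3.07, 0.17 and 0.90 on replicates 1 to 4 at 8 months, so its mean of 1.13 rests on replicate 2 and was 0.53 on replicates 3 and 4. On these 2 arrays neither Mbl2 nor Orm2, at 0.54, met the size rule, and Ptx3, at 0.88, did. Ptx3, a long pentraxin related to Apcs, was at -0.23, 0.93, 0.98 and 0.78 at 8 months, against -0.16, 0.05, 0.39 and 0.04 at 2 months. At 2 months 4 of the 12 were higher by the size rule, Orm2, Serpina1c and the metallothioneins Mt1 and Mt2. Of the 12, 10 were above 0 at 2 months, with a median of 0.27, while 3621 of all 7812 rows were. Mt1, named here for its count, was at 0.20 ± 0.43 at 8 months and 0.64 ± 0.22 at 2 months, and Mt2 at 0.32 ± 0.84 and 0.75 ± 0.11 (SD, n = 4 arrays each). Serpina1c, of the antitrypsin family of protease inhibitors, was at 0.15 ± 0.96 at 8 months and 0.70 ± 0.40 at 2 months (SD, n = 4 arrays each).

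Of 14 plasma proteins that are lowered in the acute phase or made by hepatocytes, 5 were measured, with a median of -0.06 at 8 months and 0.20 at 2 months. The apolipoproteins Apoa1 and Apoa2 were at -0.27 and -0.21 at 8 months, against 0.17 and 0.33 at 2 months, and the thyroxine carrier Ttr was at 0.16 at 8 and 0.20 at 2 months. At 8 months these 3 means join arrays of opposite sign, such as 0.84 on replicate 1 and -1.59 on replicate 2 for Apoa1. Rbp4, the retinol carrier of the plasma, was at 0.52 ± 0.45 at 8 months and 0.89 ± 0.40 at 2 months (SD, n = 4 arrays each), and was higher by the size rule at 2 months and, at 0.60, on replicates 3 and 4 at 8 months. Of the chitinase family beside Chil1 and Chil3, 2 of 7 genes were measured and neither met the size rule at either age. The active chitinase Chia1 was at 0.56 ± 0.47 at 8 months and -0.10 ± 0.40 at 2 months, and Ctbs, the lysosomal chitobiase, at 0.11 ± 0.15 and -0.15 ± 0.29 (SD, n = 4 arrays each).

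Among the cytokine signalling genes that act upstream of acute phase genes, 20 of 39 were measured, with a median of 0.08 at 8 months and -0.15 at 2 months. By the size rule 2 were higher at 8 months. Il1b, the inflammatory cytokine, was at 0.03, 1.02, 1.26 and 3.25 on replicates 1 to 4 at 8 months, against 0.09, -0.70 and 0.18 on replicates 2 to 4 at 2 months; its arrays at 8 months spread over more than 3 log2 units. Socs3, the feedback inhibitor of cytokine receptors and a target of Stat3, was at 0.41, 1.59, 0.78 and 0.33 at 8 months, against 0.28, -0.16, 0.50 and -0.18 at 2 months, and the ages overlapped. On replicates 3 and 4 Il1b met the rule, at 2.26, and Socs3, at 0.55, did not. Osmr, the oncostatin M receptor, was at 0.48 ± 0.74 at 8 months and 0.05 ± 0.14 at 2 months (SD, n = 4 arrays each). At 2 months Il17ra and Cebpa were higher by the size rule at 0.83 and 0.71, and Tnf was lower at -0.74, with 1 further gene higher, Nfkbia, the inhibitor of NF-kappaB, at 0.71, named for its count. The transducer Il6st and the factors Stat3 and Rela, named after their values were seen, were at -0.08, -0.11 and -0.15 at 8 months, against 0.05, -0.20 and 0.10 at 2 months. Il13ra1, also named after its values were seen, was at 0.34 at 8 months and -0.18 at 2 months. In the whole list 11 of the 20 were above 0 at 8 months (45.0% of all rows) and 8 at 2 months (3621 of 7812 rows).

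Of the receptors and binding partners of the 7 proteins, 8 of 14 were measured, and their median was 0.35 at 8 months and -0.17 at 2 months. By the size rule 2 were higher at 8 months. Fcgr1, an Fc receptor that also binds pentraxins, was at 1.51, 0.45, 0.14 and 1.59 at 8 months, against -1.89, -0.28, -0.79 and -0.23 at 2 months. Mmp9, the matrix protease that forms a complex with Lcn2, was at 0.59, 0.58, 0.20 and 0.98 at 8 months, against -0.60, 0.09, -1.46 and 0.03 at 2 months. Fcgr3 was at 0.52 ± 0.57 at 8 months and -0.48 ± 0.07 at 2 months (SD, n = 4 arrays each). These 3 of the 8 genes were at least 1.5-fold higher at 8 than at 2 months with no overlap of the arrays, which held for 1.57% of all rows. They were named for having the largest ratios of their list. Of the 12 further acute phase, 5 plasma protein, 2 chitinase family and 20 cytokine signalling genes, 0 were higher by this rule. Of the cytokine signalling genes 2, Cebpa and Nfkbia, were lower by it (1.72% of all rows). Lgals3, named after its values were seen, was at 0.16 ± 0.32 at 8 months and 0.45 ± 0.07 at 2 months (SD, n = 4 arrays each).

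Over both ages together, with n = 2 pairs of pools, the test of the sexes called 5 rows higher in females (0.064% of rows) and 2 lower (0.0256% of rows) with limma at an adjusted p below 0.05. Of the 47 measured genes in these 5 lists, 0 were called by limma, and 10 had an unadjusted limma p below 0.05 (10.4% of all rows did). A limma fit on the single arrays with the replicate number as a block also called 0. That fit counts repeat arrays of the same pools as replicates, so it is no second test of the sexes. The largest estimate among the 10 was that of Orm2, whose probe cannot be assumed to exclude Orm1, at 0.77 ± 0.13 (log2, SE, limma adjusted p = 0.193). Rbp4 followed at 0.70 ± 0.14 (SE; limma adjusted p = 0.253).

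The genes outside the 7 whose ratios were most like those of each, by the root mean square difference over the 8 arrays among 5626 genes with a value on every array, are given as a description. The arrays share the same pools, and the trend along the feature number was left in these ratios. The nearest to Chil3 were Ccl2, a monocyte chemokine, with a difference of 0.30 log2 units, Thbs1, the matrix protein thrombospondin, with 0.38, and the clock gene Arntl with 0.39. Ccl2 was at 1.13 at 8 months and -0.36 at 2 months, Thbs1 at 1.05 and -0.26, and Arntl at 1.11 and -0.32. All 3 were above 0 on every 8-month array and below 0 on every 2-month array, as Chil3 was.

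Outside the 7, the nearest to Saa3 and to Lcn2 were the same 3 genes: Nppb, which encodes the precursor of B-type natriuretic peptide, Ptgds, a prostaglandin D synthase of the lipocalin family, and the chemokine Ccl7. Their differences from Saa3 were 0.50, 0.63 and 0.68, and from Lcn2 0.65, 0.92 and 1.00. Saa3 and Lcn2 differed from each other by 0.66. Nppb was at 1.55 at 8 months and 0.10 at 2 months, Ptgds at 1.59 and -0.72, and Ccl7 at 1.40 and -0.61. The nearest to Serpina3n were Timp1, an inhibitor of matrix proteases, with 0.36, Gda, guanine deaminase, with 0.52, and the chemokine Ccl12 with 0.54. Timp1 was at 1.72 at 8 months and -0.16 at 2 months, and at 2.14 on replicates 3 and 4 at 8 months. Gda was at 0.81 and -0.10 and Ccl12 at 0.99 and -0.004 at 8 and 2 months. Neither Gda nor Ccl12 met the size rule at 8 months or the rule for the ages.

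Among all genes compared, the nearest to Chil1 was Lcn2, at 1.37 log2 units. Outside the 7 it was Jchain, the joining chain of secreted antibodies, at 1.59, followed by Nppb and by Sftpc, a surfactant protein of the lung, at 1.94 each. Jchain was at 2.61 at 8 months and -0.08 at 2 months, and Sftpc at 3.12 and 1.76. The nearest to Orm1 were Nusap1, a protein of the mitotic spindle, with 0.30, the potassium channel gene Kcna3 with 0.32 and Aqp11, an aquaporin, with 0.32. They were at 0.85, 0.50 and 0.48 at 8 months, against 1.26, 1.47 and 1.11 at 2 months. The nearest to Apcs were Tcf7l2, a transcription factor of Wnt signalling, with 0.70, the cyclin gene Ccne1 with 0.71 and 4930515G01Rik with 0.75. The median difference of all genes was 1.16 for Orm1 and 3.11 for Chil1, with the other 5 in between.

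The markers of other cells and tissues differed in how many met the rule for the ages. By at least 1.5-fold with no overlap between the ages, 4 of 10 macrophage markers were higher at 8 months. So were 1 of 9 neutrophil, 1 of 6 alternatively activated macrophage, 1 of 4 B and plasma cell and 1 of 5 fibroblast markers. Lower by it were 1 of 9 neutrophil and 1 of 6 lung markers. Of all rows, 1.57% were higher and 1.72% lower by this rule. None of 12 cardiomyocyte, 6 endothelial or 3 hepatocyte markers met the rule in either direction. Of the markers that met it, Mmp9, Fcgr1 and Mrc1 each stand in 2 of the lists. By the same rule 9 of 9 thymus and T cell markers and 6 of 7 adipocyte markers were lower at 8 than at 2 months (1.72% of all rows). Single markers are named here after their values were seen. At 8 months, when 5 of the 7 genes stood apart from 2 months, the 9 measured of 20 neutrophil markers were all above 0, as were 45.0% of all rows. Some of these means join arrays of opposite sign, such as -1.06 on replicate 1 and 0.97 on replicate 2 for Camp. On replicates 3 and 4 alone, 8 of the 9 were above 0, as were 3811 of the 7812 rows. The neutrophil markers had a median of 0.19 and a range of 0.02 to 0.77, against a median of -0.22 and a range of -0.49 to 2.01 at 2 months. Among the defining neutrophil genes, S100a8 and S100a9 were at 0.42 and 0.58 at 8 months, and the granule genes Ltf, Mpo, Camp and Ngp at 0.77, 0.19, 0.13 and 0.02. At 2 months Ltf was at 2.01, the highest of the list. The 10 measured of 12 macrophage markers had a median of 0.25 at 8 months, with 8 above 0, and of -0.46 at 2 months, with 0 above 0. Over all rows, 45.0% were above 0 at 8 months, and 3621 of 7812 were at 2 months. Of the alternatively activated macrophage markers, 6 of 11 were measured, with a median of 0.15 at 8 months and -0.17 at 2 months, and Retnla, which is co-expressed with Chil3 in such cells, was at -0.47 at 8 months and 0.38 at 2 months. The means of the other 5 were higher at 8 than at 2 months. Of these 5 only Mrc1, the mannose receptor, at 0.37 against -0.44, met the rule for the ages. The smallest of the 5 differences was 0.12, for Ccl22. The 3 measured of 10 hepatocyte markers had a median of -0.21 at 8 months, with a range of -0.27 to 0.16, and 0.20 at 2 months. Lung markers, 6 of 12 measured, had a median of 0.37 at 8 months with Sftpc the highest, and 0.87 at 2 months.

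At 2 months, when Orm1 was at 1.23, the 9 measured thymus and T cell markers had a median of 2.91 and the 7 measured adipocyte markers a median of 1.71. At 8 months these medians were 0.19 and -0.35, with Orm1 at 0.77. The 4 measured B and plasma cell markers had a median of -0.06 at 8 months, with Jchain alone above 0.02, and -0.27 at 2 months. The 5 measured fibroblast markers had medians of -0.01 at 8 months and -0.15 at 2 months, and the 6 measured endothelial markers of -0.37 and -0.32. The 12 measured of 13 cardiomyocyte markers had a median of -0.26 at 8 months, with a range of -0.68 to 0.05, and -0.01 at 2 months. A ratio cannot show how abundant a marker is, so the heart origin of the RNA was not checked beyond their presence among the rows with a value. The part of these cells in the ratios of the 7 genes was not tested.

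**Figure D4:**
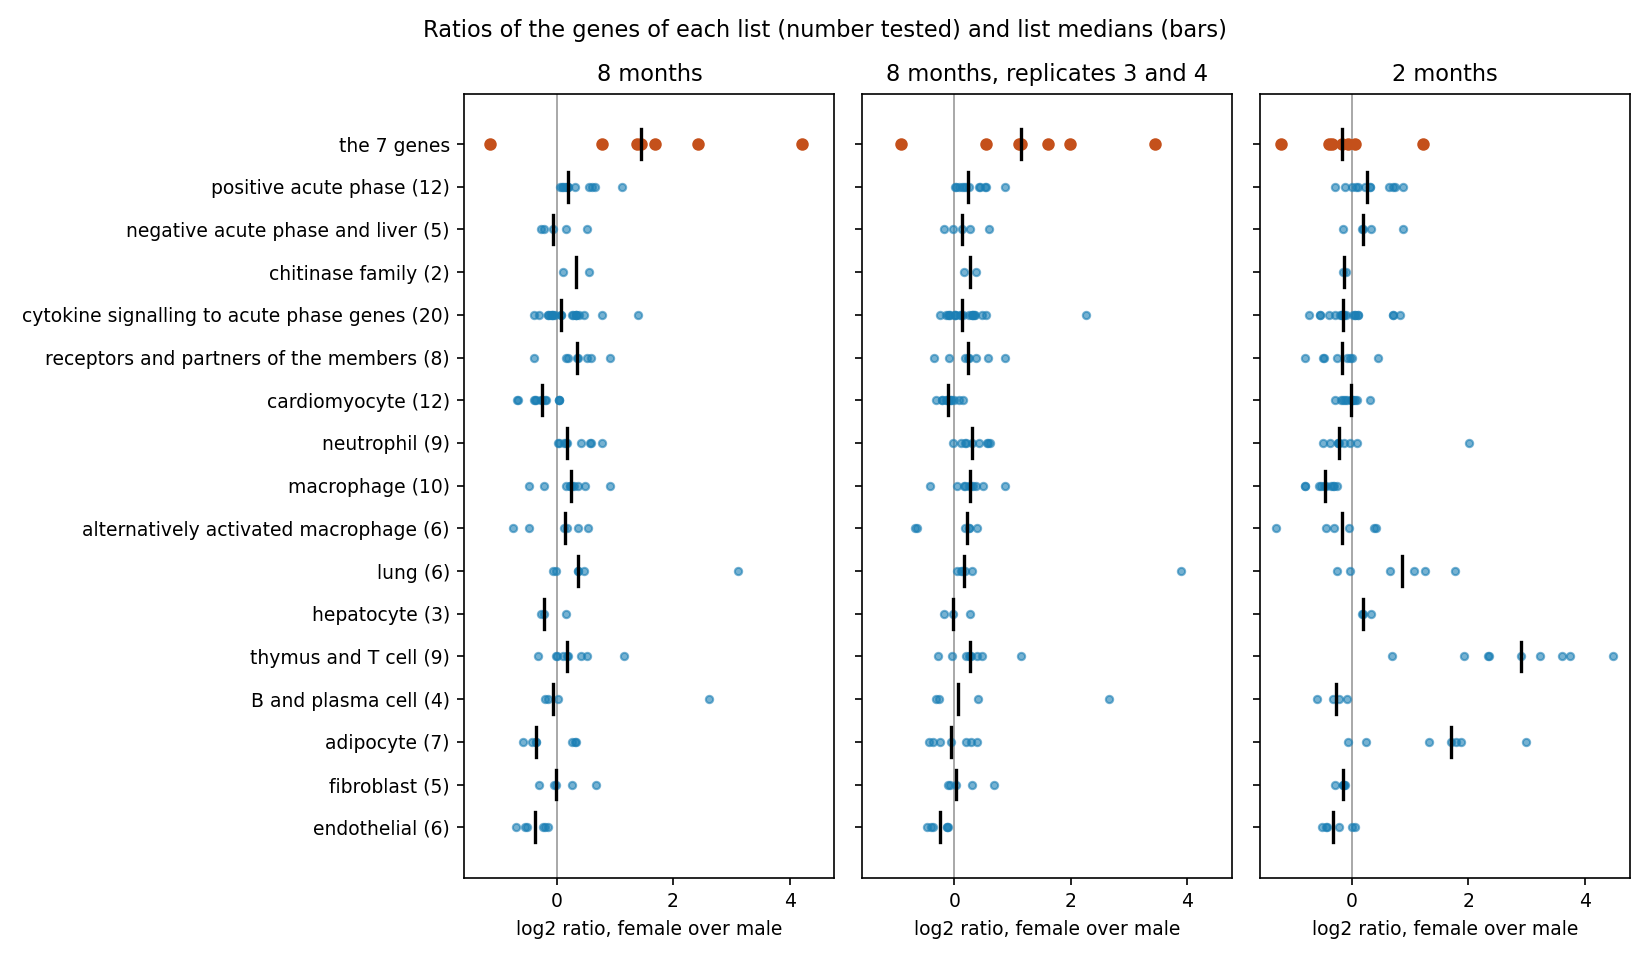
Log2 ratio of the female over the male pool (x axis) for the 7 genes (orange) and for the measured genes of each list (blue, number tested in brackets), with bars at the medians, at 8 months, on replicates 3 and 4 at 8 months, and at 2 months. The median of the 7 genes is 1.44, 1.14 and -0.17 in the 3 panels, and that of the neutrophil markers 0.19, 0.31 and -0.22.

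The direction of the deposited ratios was taken from sex-linked genes together with the dyes in the labels, so these genes are no independent check of the labels. Xist, the RNA that silences an X chromosome in females, was between 1.42 and 4.60 on the 8 arrays, and the Y-linked gene Kdm5d between -3.81 and -1.45. The sign of both followed the dye of the female pool in the deposited ratios on all 8 arrays.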

How the data were processed

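The authors' deposited table holds log10 ratios, 1 per probe and array, made with Feature Extraction 7.1.1 of Agilent, per the labels; no source used here gives any later normalization. The values stop at 2 and -2 and have a median of 0 in every column, and the direction, Cy5 over Cy3, was settled with Xist and Kdm5d. Signal over background is unknown. The sexes were compared on only 2 pairs of pools, however many arrays measured them. Exact zeros, 6.38 to 13.9% of values, were treated as no measurement. Ratios were put on the log2 scale with the female pool on top. Of 9607 rows, 6671 had 1 symbol (6600 updated through the RefSeq table of GRCm38.p6, used for names; 71 kept the platform symbol), 400 several and 2536 none. Rows of 1 symbol were averaged; each of the 7 genes had 1 probe. A row was kept with values on at least 3 of 4 arrays per age in both orientations; all 7 genes passed. Both ages were tested together with limma 3.58.1 (R 4.3.3, two-sided, Benjamini-Hochberg adjustment, threshold 0.05) on the 2 age means. The fit was also run on rows simulated with a single common spread. Real rows differ in spread, so that run is no check of the calls given here. At 1 age, rows were listed by size (1.5-fold and 1 sign on all arrays). The running median used 201 rows. Named genes were the 7, from each of 5 related lists the 3 with the largest ratio at each age, and the 3 nearest genes to each of the 7; others, such as single markers, are marked. The 7 genes and all lists were chosen with earlier results of these data known. The closing section gives the alternatives tried.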

Additional observations from a re-analysis of the deposited data

Results flagged for a closer look

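The following stood out among 44 named genes on 87 sets of 4 arrays. In 8 genes every array at 8 months had the opposite sign to every array at 2 months, and this difference was not tested. Of all rows, 1.05% were above 0 on every 8-month array and below 0 on every 2-month array, and 0.666% the other way round. Of the 8 genes, 5 (Ccl2, Thbs1, Arntl, Ptgds and Ccl7) were named for being nearest to Chil3, Saa3 or Lcn2, so their pattern was selected for. The difference of the ages, 8 minus 2 months on the log2 scale, was 1.56 for Chil3, 1.72 for Fcgr1, 0.99 for Fcgr3, 1.49 for Ccl2, 1.32 for Thbs1, 1.43 for Arntl, 2.31 for Ptgds and 2.02 for Ccl7. All 8 were higher in the female pool at 8 months and lower at 2 months.

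In 6 cases 1 array lay far from the other 3, with a gap that made up most of the whole range; chance gives about 1 in 20. None of the 7 acute phase and chitinase-like genes was among them. At 8 months replicate 1 was at -0.23 for Ptx3 (the others 0.78 to 0.98), at -2.0 for Ccne1 (the others -0.44 to -0.20) and at -1.75 for 4930515G01Rik (the others -0.67 to -0.53). Replicate 2 at 8 months was at 1.36 for Fcgr3, with the others at 0.20 to 0.27. At 2 months replicate 3 was at -0.59 for Ctbs (the others -0.02 to 0.01) and at -1.38 for Tnf (the others -0.57 to -0.45).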

How the results depend on the processing

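Under the 15 alternatives tried for the 7 genes, between 4 and 6 of the 7 genes were higher at 8 months by the size rule (5 in the report), and 5 were higher at 8 than at 2 months in each setting; these counts were added after seeing the data. Orm1 missed the 8-month rule on replicates 3 and 4 and with the arrays scaled to 1 spread, and was then lower at 8 than at 2 months by the rule; Serpina3n met it without replicate 2, on replicates 3 and 4 and with the trend removed. Saa3 met the rule as lower at 2 months without replicate 1 of that age. The 8-month means of the 7 genes kept their sign throughout, with Chil1 at 3.45 to 4.69 and Saa3 at 1.10 to 2.28. Over all rows, limma called 7 over both ages, 0 with exact zeros kept (887 with an unadjusted p below 0.05), 1 on replicates 3 and 4 at 8 months, 1 with the trend removed, 3 with the arrays scaled and 21 on single arrays with the replicate block. The replicate block setting counts repeat arrays of the same pools as replicates. Leaving out 1 array gave 4 to 104 calls, with 100 without replicate 1 and 104 without replicate 4 at 8 months and 4 without replicate 4 at 2 months. The size rule gave 326 rows at 2 months, 585 with the arrays scaled and 295 to 361 without 1 array. At 8 months it gave 233, 153 with the arrays scaled and 225 to 436 without 1 array, the highest without replicate 3, and 417 without replicate 4. For the difference of the ages it gave 257, 470 on replicates 3 and 4, and 278 to 446 without 1 array, with 446 without replicate 1 and 411 without replicate 2 at 8 months. The cause was not tested. Arrays with the same number at the 2 ages share a dye orientation but no pool, and their deviations from the age means correlated at -0.17, -0.11, 0.39 and 0.42. The numbers were therefore not taken to pair the arrays, except in the replicate block setting. Probes could not be compared within a gene, since each of the 7 had 1.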
